A study of Mus musculus with 4 samples.

Results

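Y RNAs and other small structural RNAs were examined in sciatic nerves from HSF V30M mice and from HSF WT mice. The set has 7 genes of the 50593 in the deposited table, namely the Y RNA genes Rny1 and Rny3, the 7SK RNA gene Rn7sk, the RNase MRP RNA gene Rmrp, the RNase P RNA gene Rpph1, the telomerase RNA gene Terc and the vault RNA gene Vaultrc5. They were chosen by gene symbol, with their measured levels in both groups already known, so their levels and ratios are given as a description and no test was made on them. Rn7sk has no estimate in the table and the other 6 genes have one.

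HSF V30M mice carry a human TTR V30M transgene, have no functional endogenous Ttr and are heterozygous for a deletion of Hsf1. HSF WT mice have the same heterozygous Hsf1 deletion without the transgene, so by design the groups share that deletion. The methods name a Ttr-null background for HSF V30M mice only. The transgene and the lack of endogenous Ttr thus cannot be told apart by this comparison. Hsf1 had 7.94 FPKM in HSF V30M and 14.95 in HSF WT, unequal values for a gene at equal dosage by design, and the reason was not tested. All mice were 6 months old, and the labels give the strain 129S1/SvImJ and 2 mice per group, while the methods state n = 4 for sequencing without saying whether that is per group. The promoter of the transgene, the sex of the mice and any pooling of nerves are not given in the sources used here. The authors' Cuffdiff run gave 1 value per gene and group, as FPKM, the fragments of a gene per kilobase of its transcript and per unit of sequencing depth. Single mice are not resolved in these values, so no spread between mice was computed. The table also has the authors' own test of each gene, which was not used here. Mouse Ttr had 6.10 FPKM in the group that the labels call HSF V30M and 0 in HSF WT, which goes against the null allele. The reference genome lacks the human transgene, and whether its reads were assigned to Ttr was not tested, so neither gene checks the group names, which are used as the labels give them.

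Small structural RNAs work inside ribonucleoprotein particles and are not translated. Y RNAs are short stem-loop transcripts of RNA polymerase III. The Ro60 protein binds their stem and the La protein their uridine-rich 3′ end, and they are known for roles in RNA quality control and in the start of DNA replication. RNase MRP and RNase P are related enzymes that process ribosomal RNA precursors and the 5′ end of tRNA precursors, 7SK RNA holds the transcription elongation kinase P-TEFb in an inactive particle, telomerase RNA carries the template for telomere repeats, and vault RNA is found in part in the large cytoplasmic vault particle. These are housekeeping RNAs, made in many cell types, and their level in each cell type of the nerve is not resolved here.

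The sequences of both Y RNAs are shown because these genes had the highest FPKM of all genes with an estimate and because their length bears on every value below. They are GENCODE release M21 transcripts of GRCm38 with U written as T, each a single exon that is the whole gene. Rny1 (ENSMUSG00000065701) lies on the minus strand at chr6:47788069-47788180 and Rny3 (ENSMUSG00000064945) on the plus strand at chr6:47781624-47781725. Gm26168, on the plus strand at chr6:122623547-122623658, is the annotated gene most like Rny1. Capitals in Rny1 and Rny3 mark runs of at least 7 bases that the pair shares in alignment, and capitals in Gm26168 mark letters that differ from Rny1.
Rny1: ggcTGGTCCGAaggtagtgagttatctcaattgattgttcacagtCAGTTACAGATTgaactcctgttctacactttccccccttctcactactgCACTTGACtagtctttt
Rny3: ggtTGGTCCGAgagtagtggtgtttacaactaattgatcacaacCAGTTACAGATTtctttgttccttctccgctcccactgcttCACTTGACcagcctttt
Gm26168: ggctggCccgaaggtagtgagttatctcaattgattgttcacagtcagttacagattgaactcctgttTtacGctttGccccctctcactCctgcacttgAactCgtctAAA
Rny1 has 112 bases and Rny3 has 102. They were identical at 81 of 112 alignment columns (72.3%), with 3 shared runs that hold 28 bases in all, the longest of 12 bases. The first shared run is near the 5′ end and the last near the 3′ end, which are the strands of the terminal stem of Y RNAs. Both transcripts end in TTTT, the usual stop signal of RNA polymerase III, as did Vaultrc5 among the 7 genes and 520 of 10086 annotated transcripts of 90 to 450 bases (5.16%). Gm26168 differed from Rny1 by 9 substitutions and 2 gap columns and does not end in TTTT. The Y RNA genes are separated by 6343 bases and face opposite strands, and the pseudogene between them, Rpl31-ps7, is listed at 0 in both groups.

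Rny1 had 885208 FPKM in HSF V30M and 394478 in HSF WT, which is 2.24-fold and a log2 ratio of 1.17. It had the highest FPKM of any gene with an estimate in both groups. Rny3 had 518468 FPKM in HSF V30M and 165800 in HSF WT, 3.13-fold and a log2 ratio of 1.64, and was next in order in both groups. All log2 ratios are log2((HSF V30M + 1)/(HSF WT + 1)) of FPKM, and values above 0 mean higher in HSF V30M. On the FPKM scale Rny1 was 1.71 times Rny3 in HSF V30M and 2.38 times in HSF WT, so Rny3 stood closer to Rny1 in HSF V30M.

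Annotated genes like Rny1 had low values beside it. Of 9 other genes that match at least 80% of its bases, 5 are listed at 0 in both groups and 4 have a value. Gm26168, with 91.1% of the bases matched, had 257.73 FPKM in HSF V30M and 254 in HSF WT, and the 9 genes together had 312 and 295 FPKM. Reads that fit more than 1 of these genes may have been split between them, so the values of the copies are uncertain. No annotated gene matched 80% of Rny3, and none matched 80% of Rmrp or Rpph1.

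The RNA of RNase MRP, Rmrp (ENSMUSG00000088088, minus strand, chr4:43492788-43493058, 271 bases), had 26244.1 FPKM in HSF V30M and 18883.5 in HSF WT. The fold was 1.39 and the log2 ratio 0.47, which turned to -0.26 when both groups were scaled to an equal FPKM sum. Rmrp overlaps Ccdc107, a protein-coding gene on the other strand, and the table gives both the same locus. Ccdc107 had 2.45 FPKM in HSF V30M and 4.22 in HSF WT. Whether reads were counted by strand is not given in the sources used here, so reads in the overlap cannot be told apart.

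The RNA of RNase P, Rpph1 (ENSMUSG00000092837, minus strand, chr14:50807449-50807767, 319 bases), had 9579.9 FPKM in HSF V30M and 5747.29 in HSF WT. The fold was 1.67 and the log2 ratio 0.74, which became 0.0054 with an equal FPKM sum and 0.34 with that sum counted without the Y RNAs. Rpph1 starts 74 bases from Parp2, which encodes a poly(ADP-ribose) polymerase and points the other way. Parp2 had 8.83 and 7.78 FPKM. Ccnb1ip1, whose annotated span overlaps Rpph1 on the same strand, is listed at 0 in HSF V30M and had 0.185 FPKM in HSF WT. Between the RNAs of these related enzymes, Rmrp had 2.74 times the FPKM of Rpph1 in HSF V30M and 3.29 times in HSF WT.

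The vault RNA Vaultrc5 (ENSMUSG00000065145, 143 bases) had 9539.43 FPKM in HSF V30M and 10613.1 in HSF WT. Among the genes of the set with an estimate it was the only one with a lower value in HSF V30M, at 0.899-fold and a log2 ratio of -0.15. Every scaling used lowered the ratios, so the sign for Vaultrc5 could not turn under them and is no check. Vaultrc5 lies on chromosome 18, plus strand, from 36801866 to 36802008. Its transcript holds GTTCGANNC, the core of the B box of internal RNA polymerase III promoters, which 54 of the 10086 transcripts of 90 to 450 bases hold on the transcribed strand (0.535%). Gm25403, the gene that matches 90.9% of its bases, had 4.57 FPKM in HSF V30M, while HSF WT lists it at 0.

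The telomerase RNA Terc (ENSMUSG00000064796, minus strand, chromosome 3 from 96414437 to 96414859, 423 bases) was close to the limit of detection. It had 0.80 FPKM in HSF V30M and 0.507 in HSF WT, values that stand for 4 and 2 fragments. The ratio of the FPKM values was 1.58, with an exact 95% interval of 0.226 to 17.4 that covers counting error only, and the log2 ratio of 0.26 turned to -0.029 with an equal FPKM sum. At this depth 3 fragments of Terc would have given 0.526 to 0.622 FPKM in HSF V30M and 0.648 to 0.873 in HSF WT, from the deeper to the shallower library, so a difference in Terc was not detectable. Its copy 1600017P15Rik, with 82.5% of the bases matched, is listed at 0 in HSF V30M and had 0.455 FPKM in HSF WT.

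Rn7sk (ENSMUSG00000065037, minus strand, chromosome 9 from 78175303 to 78175633, 331 bases) is listed at 0 in both groups with the status HIDATA, by which Cuffdiff marks a locus with too many alignments to be estimated. The value of 0 is a missing estimate and gives no level for 7SK RNA, although the status itself stands for many alignments at the locus. The status was given to 23 genes. Rn7s1 and Rn7s2, which encode the RNA of the signal recognition particle, are among them, and their relative Rn7s6 had an estimate, 42.4 FPKM in HSF V30M against 21.5 in HSF WT. Gm23037, the gene that matches 89.4% of Rn7sk, had 11.3 and 10.4 FPKM.

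**Figure D1:**
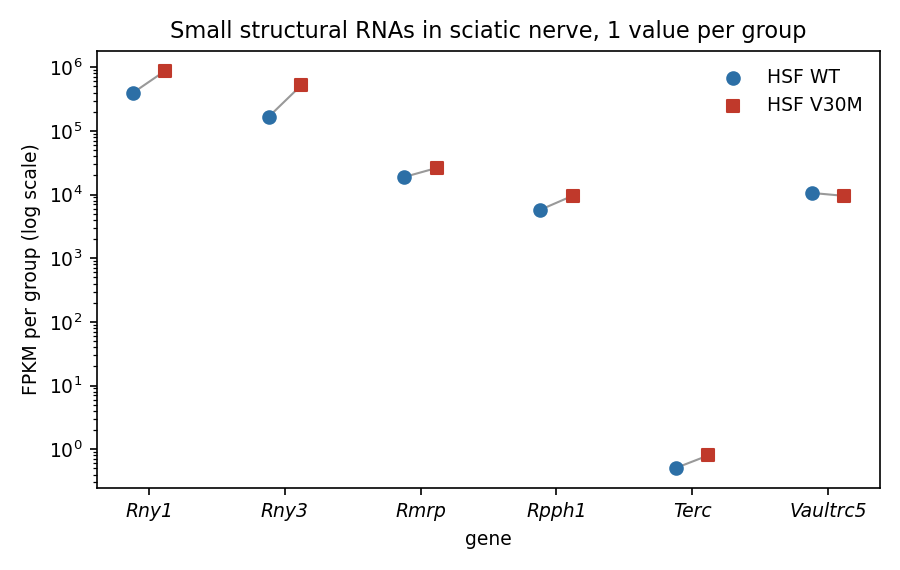
FPKM (log scale) of the 6 small structural RNAs with an estimate, 1 point per group. Rny1 (885208 in HSF V30M, 394478 in HSF WT) and Rny3 (518468 and 165800) stand above Rmrp, Rpph1 and Vaultrc5, and Terc lies at 0.80 and 0.507. Values are as deposited, and with an equal FPKM sum in both groups the order of the groups turns for Rmrp and Terc.

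In both groups the levels per length ran in the order Rny1, Rny3, Rmrp, then Rpph1 and Vaultrc5, then Terc. Rny1 had 33.7 times the FPKM of Rmrp in HSF V30M and 20.9 times in HSF WT. Rpph1 and Vaultrc5 changed places between the groups, with Rpph1 at 9579.9 FPKM against 9539.43 for Vaultrc5 in HSF V30M and at 0.542 times Vaultrc5 in HSF WT. Among all genes with an estimate, ranks in HSF V30M and HSF WT were 11 and 12 for Rmrp, 35 and 38 for Rpph1, 37 and 23 for Vaultrc5 and 16155 and 17894 for Terc. Without a value per mouse, it cannot be said which neighbours in this order differ beyond their spread.

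The values were then read as fragments, since FPKM magnifies short transcripts. Cufflinks divides by an effective length, the number of start positions a fragment of typical length has in the transcript. With fragment lengths of mean 200 and SD 80 bases, the effective length was 4.75 bases for Rny1 and 3.56 for Rny3, against 10.4 for Vaultrc5, 78.2 for Rmrp, 120 for Rpph1 and 221 for Terc. These settings were taken after the values had been seen, because they put low values of single-transcript genes on whole fragments. Low values of genes of 90 to under 150 bases numbered 39 in HSF V30M and 29 in HSF WT. All lay within 5% of a sum of whole fragments from the libraries of the group, and 29 and 25 of them within 5% of 1 fragment. For genes of 300 to under 600 bases, 98.6% and 98.7% lay within 5% of such a sum. In HSF V30M the limits of 5% around most sums of more than 1 fragment overlap, so many values there would lie within them in any case. The worth of a fragment was itself fitted to low values of these genes, so the shares are no independent check.

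A lone fragment on Rny3 was worth 11.6 to 13.8 FPKM in HSF V30M and 14.0 to 19.3 in HSF WT, where the ends of a range are the deeper and the shallower library of the group. On Rny1 the worth was 8.73 to 10.3 and 10.5 to 14.5 FPKM, and on Rpph1 it was 0.323 to 0.382 and 0.398 to 0.536. The depths of a group's libraries lay 1.18-fold apart in HSF V30M and from 1.34-fold to 1.37-fold apart in HSF WT, and which library is which mouse is not known. Read totals were not used here.

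**Figure D2:**
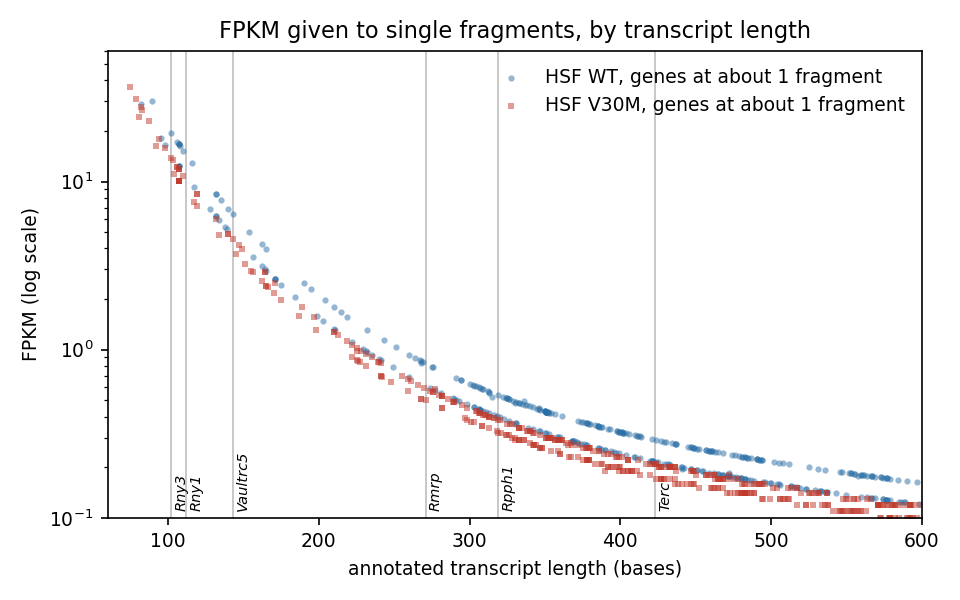
FPKM (log scale) of single-transcript genes whose value is that of about 1 fragment, against annotated transcript length in bases, with the lengths of the 6 small structural RNAs as vertical lines. The points form 1 band per library and climb from under 1 FPKM at the length of Rpph1 to between 11.6 and 19.3 FPKM at the length of Rny3.

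On this scale Rny1 stood for 85832 to 101360 fragments in HSF V30M and 27297 to 37484 in HSF WT. Rny3 stood for 37693 to 44512 and 8602 to 11813 fragments. Rmrp stood for 44403 to 52259 and 22791 to 30620 fragments, so Rny3 had 0.901 times the fragments of Rmrp in HSF V30M and 0.4003 times in HSF WT. Rpph1 stood for 25105 to 29682 and 10727 to 14450 fragments, and Vaultrc5 for 2017 to 2381 and 1601 to 2199. Counting error is thus small for these 5 genes, while the spread between mice, and the error of an effective length of under 5 bases, are unknown. In fragments Rny1 was 2.05 times Rmrp in HSF V30M and 1.27 times in HSF WT, in place of 33.7 and 20.9 in FPKM.

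Rny1 held 27.5% of the FPKM sum of HSF V30M and 20.4% of that of HSF WT, and Rny3 held 16.1% and 8.56%. Together the Y RNAs held 43.6% and 28.9%. The sums themselves were 3216330 FPKM for HSF V30M and 1936867 FPKM for HSF WT. They leave out the 23 genes marked HIDATA, Rn7sk among them, so every share is of genes with an estimate. Each gene's FPKM was also weighted by its effective length, from the median length of its transcripts. This gives an approximate share of the fragments of genes with an estimate and an annotated length. On that scale the Y RNAs held 1.27% and 0.522%. All 6 RNAs with an estimate held 45.1% and 30.7% of the FPKM sum, and 1.97% and 1.005% of the fragments. The difference between the groups was in the same direction on both scales, and its ratio was larger in fragments. The other RNAs of the set, Rmrp, Rpph1, Vaultrc5 and Terc, made up 1.41% of the HSF V30M and 1.82% of the HSF WT FPKM sum, but 0.693% and 0.482% of the fragments, so their order turned with the scale.

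**Figure D3:**
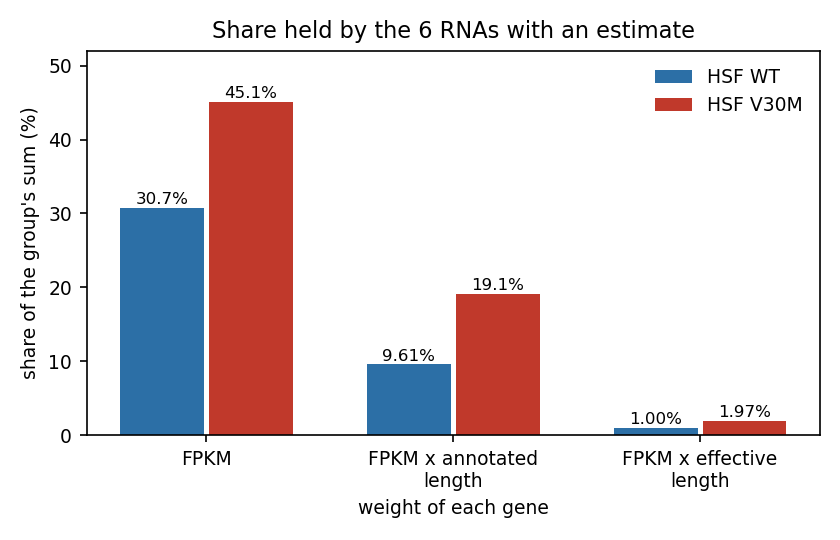
Percent of each group's total held by the small structural RNAs, over genes with an estimate. The scales are the FPKM sum, FPKM times annotated length, and FPKM times effective length. The share of all 6 RNAs drops from 45.1% to 1.97% in HSF V30M and from 30.7% to 1.005% in HSF WT between the first and the last scale.

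A gene was counted past the fold when the group values, each plus 1 FPKM, differed by more than 1.5 times and their mean was at least 1 FPKM. Of the 5 RNAs of the set with such a mean, 3 were past the fold and higher in HSF V30M (Rny1, Rny3, Rpph1) and 0 were past it and lower. With an equal FPKM sum Rny3 alone was past it and higher, Rny1 (0.43) and Rpph1 (0.0054) were inside it and Vaultrc5 (-0.89) was past it and lower, and with the sum counted without the Y RNAs Rpph1 (0.34) was inside it. With the values as deposited, Rpph1 at 1.67-fold was the closest to the limit of those past the fold, and Rmrp at 1.39-fold the closest of those inside it. Over all 15620 genes with a mean of at least 1 FPKM, 8.22% were past the fold and higher and 8.44% past it and lower, with a median log2 ratio of 0.00. Since the set was chosen with these values known, nothing is read from its count.

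Genes of like length give another background. Of 1163 other single-transcript genes of 90 to 450 bases with a mean of at least 1 FPKM, 34.9% were past the fold and higher and 33.7% past it and lower, with a median log2 ratio of 0.02. About 1 fragment can pass both limits here, as in Gm22633 (107 bases), at 10.06 FPKM in HSF V30M and 0 in HSF WT. These shares thus include counting error, which is small for Rny1, Rny3, Rmrp, Rpph1 and Vaultrc5. The background also includes immunoglobulin variable genes, most of them lower in HSF V30M, and their part in the shares was not tested. Of 128 single-transcript genes of 70 to 450 bases that reached 1000 FPKM in either group, a limit set after the values had been seen, 51.6% were past the fold and higher and 8.59% past it and lower, with a median log2 ratio of 0.65. A gene that reached the limit in 1 group only had to differ, so this share is a description. Small nucleolar RNAs, guides of ribosomal RNA modification, made up 109 of the 128, with 57 higher, 8 lower and a median of 0.71. Among the 128, 33 had a larger ratio than Rny1, 19 than Rny3, 60 than Rpph1, 74 than Rmrp and 108 than Vaultrc5. The Y RNAs were in the upper part of the range of these 128 genes. The limit admits genes that are high in 1 group only, which widens that range, so it cannot show whether the Y RNAs are unusual.

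The median ratio between the groups differed between classes of annotated length, while single short genes spread widely. Among single-transcript genes with a mean of at least 1 FPKM the median log2 ratio was 0.77 for 70 to under 100 bases (183 genes), 0.46 for 100 to under 150 bases (417 genes) and 0.23 for 150 to under 200 bases (148 genes). It was -0.03 for 200 to under 300 bases (188 genes), -0.25 for 300 to under 400 bases (259 genes), -0.06 for 400 to under 1000 bases (715 genes) and 0.03 for 1000 bases or more (1412 genes). The 10th and 90th percentiles were -5.21 and 5.06 for 70 to under 100 bases and -3.96 and 3.63 for 100 to under 150 bases, so the medians are small beside the spread of the short classes. In these classes about 1 fragment in 1 group can pass the minimum mean, so this spread includes counting error. The Y RNAs, at 1.17 and 1.64, lay above the median of their length class. Vaultrc5 at -0.15 lay below the median of the same class, and Rpph1 at 0.74 lay above that of 300 to under 400 bases. The class of Rpph1 includes immunoglobulin variable genes, most of them lower in HSF V30M, as were the B cell markers described below. Their part in the median of that class was not tested, so the place of Rpph1 beside it may not reflect length alone. Total RNA was taken up on RNeasy columns, which hold short RNA poorly, and libraries were made from it. Whether recovery of short RNA differed between the libraries was not tested, and with 1 value per group it cannot be told apart from a difference in the nerves.

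**Figure D4:**
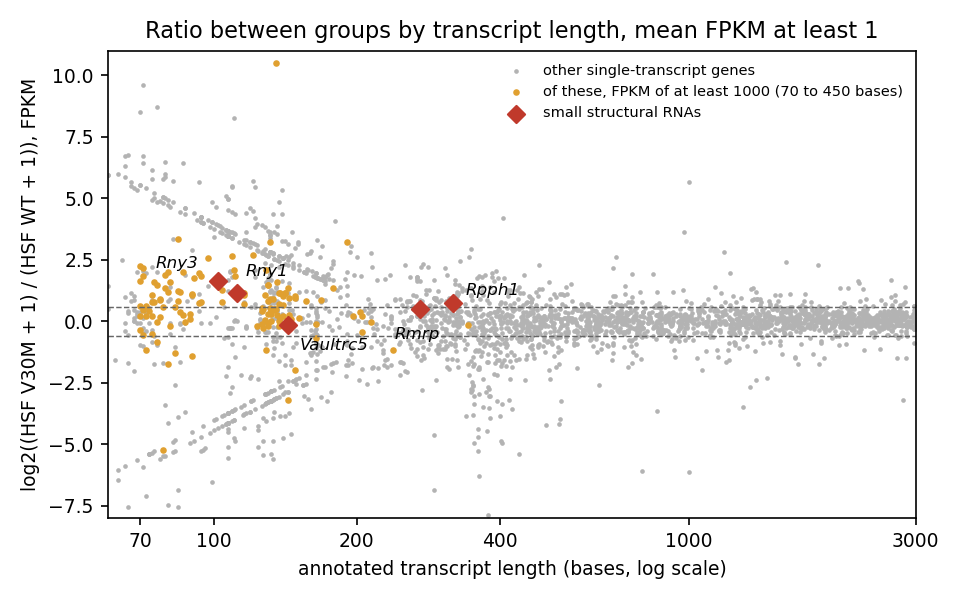
Log2 ratio (HSF V30M over HSF WT) against annotated length in bases (log scale) for single-transcript genes with a mean of at least 1 FPKM. Dashed lines mark the fold of 1.5. The small structural RNAs are red diamonds and other genes of 70 to 450 bases with at least 1000 FPKM are orange; Rny3 (1.64) and Rny1 (1.17) lie among the orange points, and slanted grey lines at short lengths are mostly genes listed at 0 in 1 group. With an equal FPKM sum Rmrp turns from 0.47 to -0.26.

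The FPKM sums of the groups differ with and without the Y RNAs, so scaling to them bore on every ratio. With an equal FPKM sum in both groups the median log2 ratio of all genes moved to -0.63, and of the genes past the fold 5.21% were higher in HSF V30M in place of 49.3%. With the sum counted without the Y RNAs the median moved to -0.34 and the share to 15.6%. Relative to the median of all genes, the log2 ratio under an equal FPKM sum was 1.07 for Rny1, 1.55 for Rny3, 0.64 for Rpph1, 0.38 for Rmrp and -0.25 for Vaultrc5. Relative to that median, no RNA of the set changed sign under either scaling. Such scaling moves the median and the ratios of genes well above 1 FPKM nearly alike, so this result follows from the arithmetic and is no check on the ratios. The ratio of Terc, under 1 FPKM, moved less, from 0.26 to -0.029 with an equal FPKM sum.

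The genes whose pair of values was most like each RNA, among genes of at most 400 bases, were named by the Euclidean distance of log2(FPKM + 1) over the 2 group values. With only 2 values this is mostly likeness of level. Rny1 and Rny3 were nearest to each other, at a distance of 1.47, and next to both was Gm22513, a small nuclear RNA gene with 137410 FPKM in HSF V30M and 149655 in HSF WT. Rmrp was nearest to the small nucleolar RNA Snord32a (31927.4 and 21360.2 FPKM, distance 0.33) and then to Snord15b. Rpph1 was nearest to Snord13 (9616.52 and 5594.32 FPKM, distance 0.04) and then to Gm25894. Vaultrc5 was nearest to Snora73b (8715.8 and 11718 FPKM, distance 0.19) and then to Snord100. Terc was nearest to the pseudogenes RP24-364H18.2 and Dnajc19-ps, both under 1 FPKM.

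The protein genes of the same particles showed few differences past the fold. A list of 55 genes for Ro and La, the 7SK particle, RNase P and RNase MRP, telomerase, the vault and RNA polymerase III was in the table in full, and 52 had a mean of at least 1 FPKM. Of these, 2 were past the fold and higher in HSF V30M, 0 were past it and lower, 24 had a ratio above 0 and 28 below, and the median log2 ratio was -0.04, beside 8.22% higher, 8.44% lower and a median of 0.00 over all genes. With an equal FPKM sum 0 were past the fold and higher and 34 past it and lower, beside 3.06% and 55.6% of all genes under that scaling, and relative to the median of all genes under that scaling 3 were higher and 0 lower.

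The transcripts of the Y RNA binding proteins were inside the fold. Trove2, which encodes Ro60, had 5.38 FPKM in HSF V30M and 4.80 in HSF WT, a log2 ratio of 0.14. Ssb, which encodes La, had 16.42 and 20.8 FPKM, a log2 ratio of -0.33. Whether these ratios differ from those of Rny1 and Rny3 was not tested.

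The partners past the fold were Pop4 and Polr3gl. Pop4, a protein subunit shared by RNase P and RNase MRP, had 15.73 FPKM in HSF V30M and 7.61 in HSF WT, 1.94-fold with a log2 ratio of 0.96. The other 8 measured subunits of these enzymes were inside the fold, and the 9 together had a median of -0.04. Polr3gl, a subunit of RNA polymerase III, had 11.37 and 6.43 FPKM, 1.66-fold with a log2 ratio of 0.74. The 23 genes of RNA polymerase III and its factors had a median of -0.04, with 10 ratios above 0 and 13 below. No spread between mice was computed for either difference.

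In the 7SK particle, Larp7, which binds the 3′ end of 7SK RNA, had 6.71 FPKM in HSF V30M and 9.12 in HSF WT. Mepce, which caps its 5′ end, had 29.06 and 23.7 FPKM. Hexim1, the P-TEFb inhibitor, had 19.8 and 21.2 FPKM, and Cdk9, the kinase of P-TEFb, 36.89 and 29.4. The 9 genes of the particle had a median log2 ratio of -0.10 and none was past the fold, so both groups held its protein transcripts although the RNA has no estimate. Tert, the telomerase reverse transcriptase, had 0.61 and 0.469 FPKM. Fragments were not computed for Tert, so it is not known whether Tert was as close to the limit of detection as Terc. Dkc1, which encodes dyskerin of telomerase and of H/ACA particles, had 7.54 and 11.2 FPKM. Mvp, the major vault protein, had 47.12 and 41.3 FPKM, a log2 ratio of 0.18 beside -0.15 for Vaultrc5.

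**Figure D5:**
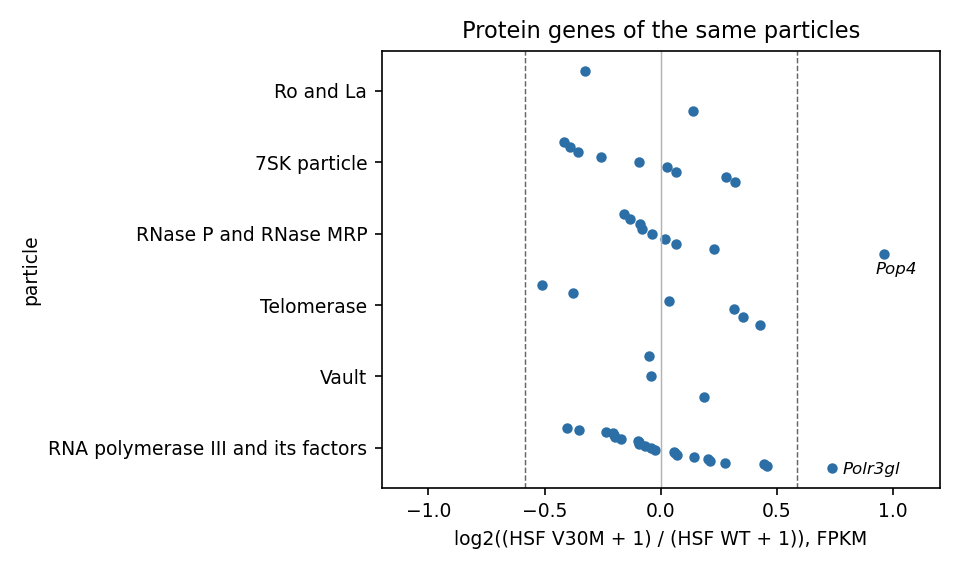
Log2 ratio (HSF V30M over HSF WT) of the protein genes of the small structural RNA particles with a mean of at least 1 FPKM, grouped by particle, with the fold of 1.5 as dashed lines. The genes lie between -0.51 and 0.96 with a median of -0.04, and Pop4 and Polr3gl are past the fold. With an equal FPKM sum in both groups none is past it on the right and 34 are past it on the left, as the median of all genes moves to -0.63.

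The nerve samples held their defining cells in both groups, and markers of other cell types differed. The 6 myelinating Schwann cell markers reported, among them Mbp and Prx, had summed levels of 7464.64 FPKM (HSF V30M) and 7057.39 FPKM (HSF WT), and 0 were past the fold. Summed levels in HSF V30M and HSF WT were 42.02 and 149.2 FPKM for skeletal muscle, with 6 of 6 markers past the fold and lower in HSF V30M. They were 291 and 101 FPKM for erythroid cells, with 5 of 6 past it and higher, and 104 and 26.3 FPKM for neutrophils, with 6 of 6 past it and higher. They were 3.49 and 29.7 FPKM for B cells, with 5 of 5 markers of sufficient mean past it and lower, and 2148.69 and 2974.87 FPKM for adipocytes, with 3 of 5 past it and lower. None of these markers was at 0 in either group. The part of these cell types in the levels of the small structural RNAs was not tested, and in bulk RNA a change in the number of cells of a type and a change in RNA per cell cannot be told apart.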

How the data were processed

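Sciatic nerve RNA was sequenced by the authors on Ion Torrent. The submitters' processing notes name STAR, Cufflinks, Cuffdiff and GRCm38. Versions and the annotation are not given in the sources used here. The authors deposited 1 Cuffdiff table with 1 FPKM value per gene and group, written with decimal commas, which were read as points. Its columns of the authors' own comparison (log2 fold change, test statistic, p-value, q-value, significance) were not used. Columns of other samples numbered 0.

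Ratios used log2(FPKM + 1), a minimum mean of 1 and a fold of 1.5. Genes marked HIDATA were left out of sums and calls. The members and lists were chosen with earlier results of these data known. Named were the 7 members, partner genes past the fold and 9 fixed partners, overlapping genes, genes of the same symbol stem, and the 2 nearest genes of at most 400 bases. From the marker lists, 1 gene is not reported here. Neighbours, copies and C920006O11Rik were added after values were seen. Transcripts came from GENCODE M21 (GRCm38), which lacks 224 of the gene identifiers, and genes with 1 transcript alone in their locus served for fragment steps. No promoter of the 7 genes was in the RefSeq promoter table used. Counting intervals are exact (Clopper-Pearson) at 95%, and reads are not unique molecules. The scripts were tested on simulated data. Alternatives were a pseudocount of 0.1, 3 scalings, minimum means of 0 and 5, a fold of 2, and other shares. The software was Biopython 1.88, matplotlib 3.10.9, scipy 1.17.1, pandas 2.3.3, numpy 2.4.6 and Python 3.11.15.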

Additional observations from a re-analysis of the deposited data

How the results depend on the processing

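No paired analysis was possible because single mice are not resolved in the table, and leaving out each replicate was not run for the same reason. With a pseudocount of 0.1, median-of-ratios scaling, no minimum or a minimum mean of 5 FPKM, 3 of the small structural RNAs were past the fold and higher and 0 lower, and with a fold over 2 they were 2 and 0 (Rny1 and Rny3). With an equal FPKM sum, 1 was higher (Rny3) and 1 lower (Vaultrc5), partner genes numbered 0 higher and 34 lower, and the log2 ratio was 0.43 for Rny1, -0.26 for Rmrp, 0.0054 for Rpph1, -0.029 for Terc and -0.89 for Vaultrc5. With that sum counted without the Y RNAs, partner genes numbered 1 higher and 10 lower and Rpph1 had 0.34. Under these scalings the median log2 ratio of all genes was -0.63 and -0.34, in place of 0.00 with the values as deposited. With a fold over 2, 0 partner genes were higher. The share held in HSF V30M and HSF WT, 45.1% and 30.7% of the FPKM sum, was 19.1% and 9.61% with FPKM times annotated length, 2.50% and 2.56% with the Y RNAs left out of both parts, 7.80% and 5.15% over genes of at least 200 bases, and 1.97% and 1.005% with FPKM times effective length, which was chosen after seeing the data. Depth limits Terc, at 4 and 2 fragments, and the number of mice limits every difference.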

Other observations

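C920006O11Rik, a long noncoding RNA gene that starts 280 bases from the 5′ end of Rn7sk and points the other way, was picked out after its values had been seen. It had 1.44 FPKM in HSF V30M and 0.0386 in HSF WT, which stand for 38.8 to 45.9 fragments and about 1 fragment (0.742 to 0.999) of a transcript of 1444 bases. Its level in each mouse is not known. Rn7sk itself has no estimate in either group, and no comparison within this divergent pair was made.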
